A study of Mus musculus with 360 samples.

Results

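The collagens that build cartilage were followed through single skeletal stem and progenitor cells of the mouse skull and shin bone. Their 7 genes were Col2a1 (type II), Col9a1, Col9a2 and Col9a3 (type IX), Col11a1 and Col11a2 (type XI) and Col10a1 (type X), chosen by name from the 24015 genes listed in each of 8 count tables. All 7 were in every table, and each had reads in at least 1 tissue. The cells were CD51+;CD200+ cells, the surface phenotype the study uses for skeletal stem/progenitor cells, sorted after exclusion of CD45, Ter119, Tie2, Thy1, 6C3 and CD105. Wild-type CD-1 pups were used at postnatal day 3, and the labels name no transgene or treatment for them. Cells were taken from the posterior frontal suture (PF), which fuses early in life, from the sagittal (SAG) and coronal (COR) sutures, which remain patent, and, as a reference, from the tibial growth plate (GP). Mice were pooled, and each tissue was sorted onto 2 plates. A suture dissection also took the osteogenic fronts, the mesenchyme between them, the dura mater and the periosteum, so a sorted cell could have come from any of these.

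Type II collagen is the main fibril of cartilage and is made of identical chains encoded by Col2a1. Type IX collagen decorates the surface of that fibril and needs a chain from each of Col9a1, Col9a2 and Col9a3. Type XI collagen sits in the fibril core, limits its width and joins a Col11a1 chain, a Col11a2 chain and a chain made from Col2a1. Outside cartilage the Col11a1 chain can also assemble with chains of type V collagen in fibrils that are mostly type I. Type X collagen, encoded by Col10a1, forms a network around hypertrophic chondrocytes, the swollen cells at the bone-facing end of a growth plate.

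After removal of cells with fewer than 500 genes or 10000 reads, 325 of 360 cells remained. Plates 1 and 2 gave 34 and 53 PF cells (87 in all), 30 and 56 SAG cells (86), 16 and 58 COR cells (74), and 20 and 58 GP cells (78). Levels are given in CPM, reads per 1000000 reads other than those of the ribosomal RNA gene Rn45s, after summing the cells of a plate or tissue. SAG plate 2 stood apart. Rn45s took 86.8% of its reads, against 20.2% to 30.96% elsewhere, and its cells had a median of 875 genes, against 2111.5 to 3867 on the other plates. After thinning each cell to 100000 reads other than Rn45s, the medians were 833 genes on SAG plate 2 and 2858 on SAG plate 1. SAG levels of the 7 genes are therefore given by plate. Itgav, which encodes CD51, was read in 3 of 56 cells of SAG plate 2 and in 13 of 30 cells of SAG plate 1, and Cd200 in 9 and 20 cells. Summed markers of endothelium reached at most 25.6 CPM, of blood 40.6 CPM, of red cells 13.2 CPM and of skeletal muscle 0.34 CPM on any plate, with Pecam1 and Tek at 0 in all cells. The osteoclast list of 5 genes summed to 453.1 to 7759 CPM a plate, with its genes Ocstamp and Calcr at 0 in all cells. Its gene Mmp9 stood at 7222 and 1963 CPM on the SAG plates and at most at 252.1 CPM elsewhere. Summed markers ran from 67.9 to 2056 CPM for pericytes, 55.5 to 3102 CPM for tendon and 0.17 to 396.3 CPM for nerve and glia. These lists moved with tissue: of 5 pericyte genes 3 were lower and 1 higher in SAG than in PF, and 3 were lower in SAG than in GP by the rule given further on, with median log2 ratios of -4.86 and -5.62, and 2 of 3 tendon genes were lower in SAG than in GP. Their part in the results was not tested. Each tissue counted as 1 pooled sample, so no p-value or standard error was computed, and the spread is that between 2 plates. Intervals in parentheses are exact 95% intervals and cover counting error only.

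The bases before the start site are shown for the 3 genes whose levels ran least closely with Col2a1 over the cells. RefSeq (GRCm38.p6) gives such a sequence for 5 of the 7 genes, and the 250 bases upstream of the start were searched for TATAAA on the gene's strand (TATA box) and for GGGCGG on both strands (GC box), drawn in capitals. For Col11a1 the window was chr3:114030290-114030539, for Col11a2 chr17:34038888-34039137 and for Col10a1 chr10:34389731-34389980, all on the plus strand.
Col11a1: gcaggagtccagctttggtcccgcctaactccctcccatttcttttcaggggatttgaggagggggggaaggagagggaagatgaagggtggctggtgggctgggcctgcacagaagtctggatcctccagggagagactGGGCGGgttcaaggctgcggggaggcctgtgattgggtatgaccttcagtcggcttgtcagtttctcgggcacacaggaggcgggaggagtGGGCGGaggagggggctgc
Col11a2: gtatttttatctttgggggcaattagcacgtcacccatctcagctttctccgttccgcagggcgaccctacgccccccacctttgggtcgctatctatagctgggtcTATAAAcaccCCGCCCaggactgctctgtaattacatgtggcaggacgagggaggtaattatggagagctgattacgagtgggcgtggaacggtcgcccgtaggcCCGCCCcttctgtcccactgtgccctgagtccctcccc
Col10a1: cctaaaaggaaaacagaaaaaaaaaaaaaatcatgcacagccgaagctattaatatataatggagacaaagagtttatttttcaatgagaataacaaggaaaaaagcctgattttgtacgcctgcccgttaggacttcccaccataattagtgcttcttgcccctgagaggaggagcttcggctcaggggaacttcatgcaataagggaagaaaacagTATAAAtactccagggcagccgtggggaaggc
The Col10a1 window held 1 TATA box, 32 bases before the start, and 0 GC boxes, with 41.6% G and C. The Col11a1 window held 0 TATA boxes and 2 GC boxes, the nearer 19 bases before the start, with 62.4% G and C. Col11a2 had both kinds, a TATA box 143 bases and 2 GC boxes 133 and 38 bases before the start. Of 32851 mouse windows of the same length, 7.59% held the TATA letters and 32.7% the GC box letters, and the median share of G and C was 52.4%. The windows were also searched on both strands for ACAAT (SOX core) and TGTGGT (RUNX core). None of the windows shown held either, against 27.7% and 14.05% of all windows. A match of letters, or its absence, is a description and not a shown binding site.

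Col2a1 (chr15:97806033-97835155, minus strand, mm9) was read mostly in SAG cells. Its level was 9413 and 7214 CPM on SAG plates 1 and 2, 53.4 and 2831 CPM on the GP plates, 1.18 and 58.7 CPM on the PF plates and 0.31 and 2.26 CPM on the COR plates. Both SAG plates lay above all others, although with Rn45s counted in the totals SAG plate 2 (955.1 CPM) was below GP plate 2 (1954 CPM), whereas the plates of GP and PF overlapped, as did those of PF and COR. A read was found in 56 of 86 SAG cells (65.1%, interval 54.1% to 75.1%) and in 21 of 78 GP cells (26.9%, 17.5% to 38.2%). It was found in 8 of 87 PF cells (9.20%, 4.05% to 17.3%), and COR had it in 3 of 74 (4.05%, 0.84% to 11.4%). At 10 reads or more the shares were 62.8%, 21.8%, 6.90% and 1.35%. A single cell held 62.8% of the Col2a1 reads of GP, and without it GP stood at 900.6 CPM. In COR 1 cell held 64 of the 66 reads, and without it the level was 0.06 CPM. Among cells with a read, the level ran from 6.08 to 145227 CPM in SAG, with a median of 3883 CPM, against medians of 738.8 CPM in GP and 176.3 CPM in PF.

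**Figure D1:**
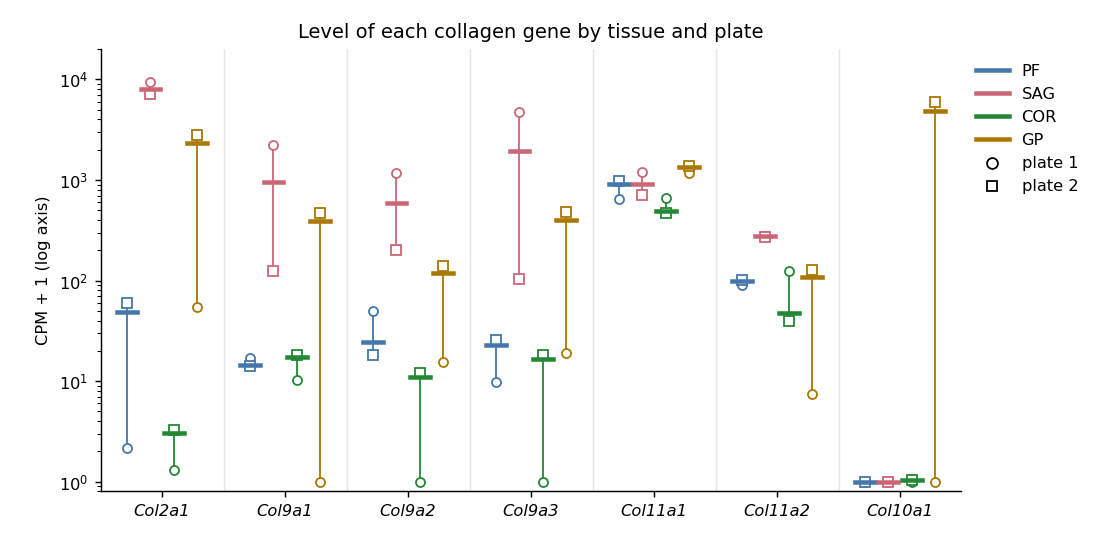
Level of the 7 collagen genes as CPM + 1 on a log axis, by tissue (colour), for plate 1 (circle), plate 2 (square) and both plates summed (bar). With Rn45s left out of the totals Col2a1 was highest on both SAG plates, Col11a1 lay between 473.5 and 1373 CPM on all 8 plates, and Col10a1 stood out on GP plate 2 alone.

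The type IX genes had their highest levels on SAG plate 1. Col9a1 (chr1:24184449-24259577, plus strand) stood at 2220 and 123.8 CPM on SAG plates 1 and 2, 0 and 470.4 CPM on the GP plates, 15.9 and 13.04 CPM on the PF plates and 9.27 and 17.2 CPM on the COR plates. Col9a2 (chr4:120711990-120727927, plus strand) stood at 1160 and 198.6 CPM in SAG, 14.4 and 137.9 CPM in GP, 49.03 and 17.2 CPM in PF and 0 and 11.1 CPM in COR. Col9a3 (chr2:180332495-180356894, plus strand) stood at 4730 and 102.6 CPM in SAG, 18.01 and 483.2 CPM in GP, 8.79 and 24.9 CPM in PF and 0 and 17.2 CPM in COR. On SAG plate 1 each of the 3 genes was above 1000 CPM, higher than on any other plate, and on SAG plate 2 each was far lower. Only for Col9a2 did both SAG plates lie above both GP plates. Cells with a read numbered 22, 22 and 26 of 30 on SAG plate 1 for Col9a1, Col9a2 and Col9a3, and 10, 14 and 6 of 56 on SAG plate 2. In PF and COR 4 to 10 cells per tissue had a read of any given type IX gene. The end of Col9a3 overlaps Tcfl5 on the other strand by 234 bases, and strand use in the counting was not stated in the sources used here. Tcfl5 stood at 10.2 CPM on SAG plate 1, in 1 cell, and the value of Col9a3 may include some of its reads.

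Col11a1 (chr3:113733458-113923636, plus strand) was the most widely read of the 7 genes. Its level was 1172 and 1373 CPM on the GP plates, 638.7 and 975.7 CPM in PF, 1199 and 711.0 CPM in SAG and 668.3 and 473.5 CPM in COR. GP exceeded PF on every plate comparison and SAG exceeded COR on every one (SAG stood at 178.8 CPM against 363.1 CPM in COR when Rn45s was counted), while the plates of PF and SAG overlapped. Reads were found in 67 of 78 GP cells (85.9%, 76.2% to 92.7%), 72 of 87 PF cells (82.8%, 73.2% to 90.02%) and 61 of 74 COR cells (82.4%, 71.8% to 90.3%). In SAG the number was 60 of 86 (69.8%, 58.9% to 79.2%). The 2 SAG plates differed, with 28 of 30 cells on plate 1 and 32 of 56 on plate 2. No single cell held more than 19.3% of the Col11a1 reads of a tissue.

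Col11a2 (chr17:34176382-34203630, plus strand), which makes the other chain particular to type XI, was less common. It stood at 275.3 and 272.4 CPM on the SAG plates, 88.6 and 99.8 CPM in PF, 123.5 and 38.2 CPM in COR and 6.48 and 127.2 CPM in GP. SAG lay above the others on all plates, but with Rn45s counted stood at 54.001 CPM, below PF (71.4 CPM) and GP (73.8 CPM), and the plates of GP, PF and COR overlapped. A read was found in 23 of 30 and 20 of 56 cells on the SAG plates and 9 of 34 and 13 of 53 in PF. In COR it was 6 of 16 and 5 of 58, and in GP 2 of 20 and 11 of 58. The share on plate 1 exceeded that on plate 2 in SAG, COR and, by little, PF (26.5% and 24.5%). Per kilobase of exon, the level of Col11a1 was 94.2 CPM in PF and 51.1 CPM in COR, and that of Col11a2 14.3 and 6.85 CPM. On SAG plates 1 and 2 the same measure was 124.2 and 73.6 CPM for Col11a1, 40.3 and 39.9 CPM for Col11a2 and 1561 and 1196 CPM for Col2a1.

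Col10a1 (chr10:34109787-34116891, plus strand) was read on GP plate 2, apart from a single read in COR. There it stood at 5917 CPM, in 13 of 58 cells, of which 11 had 10 reads or more. GP plate 1 had 0 reads in 20 cells, which allows a level of up to 0.61 CPM. No read was found in 87 PF cells, which allows up to 0.10 CPM or 3.45% of cells with a read, or in 86 SAG cells, which allows up to 0.17 CPM or 3.49% of cells with a read. These limits cover counting error only, and most of the SAG cells were from plate 2, with few genes read. In COR there was 1 read, in 1 of 74 cells. The level in the 13 GP cells ran from 2.81 to 173869 CPM with a median of 4757 CPM, and the highest cell held 43.03% of the reads. The gene lies wholly within Nt5dc1, which is read from the other strand. Nt5dc1 stood at 1.19 CPM on GP plate 2, and among the 11 cells with at least 10 Col10a1 reads 1 had a read of it. The overlap was taken from whole gene spans and not from exons. How far reads of the 2 genes could be mixed in the counts was not tested.

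**Figure D2:**
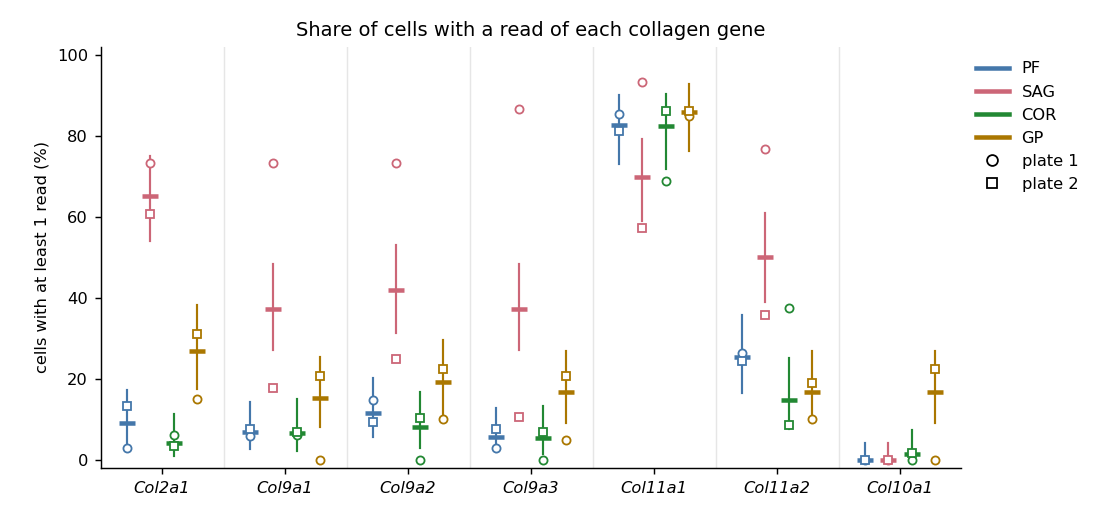
Share of cells with at least 1 read of each gene, in percent, by tissue (colour). Bars and vertical lines give the share over both plates and its exact 95% interval, circles plate 1 and squares plate 2. Col11a1 was read in 69.8% to 85.9% of cells in all 4 tissues, while Col2a1 ranged from 4.05% in COR to 65.1% in SAG.

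Which differences between tissues exceeded the spread between plates was asked with 1 rule for all genes. A gene counted as higher where the log2 ratio of pooled CPM + 1 was at least 1 and all 4 comparisons of single plates had the same sign, among genes with at least 10 CPM in 1 of the 2 tissues. Comparisons that share a tissue share its cells.

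Against PF, SAG was higher for 5 of the 6 genes that reached the minimum, where 13.2% of all 9869 genes met the rule in that direction. The log2 ratio was 7.38 for Col2a1 (plate comparisons 6.92 to 12.07), 6.42 for Col9a3 (2.00 to 8.92), 6.04 for Col9a1 (2.89 to 7.31) and 4.58 for Col9a2 (2.00 to 6.0). Col11a2 had a ratio of 1.48 (1.44 to 1.62), which turned to -0.40 when Rn45s was counted in the totals. Under that scaling Col9a2 and Col9a3 were also no longer higher on every plate, which left Col2a1 and Col9a1, 2 genes against 4.52% of all genes. Col11a1 did not differ beyond the plates, with a ratio of -0.01 (-0.46 to 0.91). The median ratio over all genes was -0.29. Without SAG plate 2 the same count was 5, and 17.2% of all genes met the rule.

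Against COR, SAG was again higher for 5 of 6 genes, with 13.5% of 9800 genes meeting the rule. Ratios were 11.37 for Col2a1, 6.89 for Col9a3, 5.79 for Col9a1, 5.73 for Col9a2 and 2.52 for Col11a2. With Rn45s counted the number was 4, where 4.56% of all genes met the rule. Col11a2 then stood at 54.001 CPM in SAG and 34.5 CPM in COR, below the minimum size. On SAG plate 2 (36.1 CPM) it was also below COR plate 1 (98.6 CPM). Col11a1 had a ratio of 0.88 with all plate comparisons above 0 and stayed below the minimum size. Without SAG plate 2 it passed as well, for a count of 6, and 16.5% of all genes met the rule.

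GP was higher than COR for 4 of 7 genes, where 7.09% of 9431 genes met the rule. These were Col2a1 (log2 ratio 9.58), Col9a3 (4.62, with a lowest plate comparison of 0.06), Col9a2 (3.41) and Col11a1 (1.44). The count rested on the GP plates, being 7 without GP plate 1 and 2 without GP plate 2. With a GP or PF plate left out, the share of all genes was not computed. Against PF, GP was higher for 0 of 7 genes by the rule, with 8.73% of all genes meeting it, although the pooled ratio was 5.6 for Col2a1, 4.74 for Col9a1 and 4.15 for Col9a3. GP plate 1 lay below a PF plate for each of them, and without GP plate 1 the count was 5, without PF plate 2 it was 3.

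SAG was higher than GP for 3 of 7 genes, namely Col9a2 (2.31), Col2a1 (1.78) and Col11a2 (1.36), with 13.3% of all genes meeting the rule. With Rn45s counted in the totals, the ratio of Col2a1 turned to -0.030, that of Col11a2 to -0.44, and that of Col9a2 was 0.50. Then 0 of the 7 genes were higher in SAG, against 4.88% of all genes. Without SAG plate 2 the count was 5, where 17.6% of all genes met the rule. It was also 5 without GP plate 2, where that share was not computed. PF was higher than COR for 1 of 6 genes, Col9a2 (1.15), from 10 and 6 cells with a read, with 5.43% of all genes meeting the rule. For Col2a1 the pooled ratio of PF to COR was 3.99, with plate comparisons from -0.58 to 5.51.

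The same rule was applied to other cartilage genes from a list that had been chosen with results of these data known. Of 15 such genes, which include the cartilage transcription factors Sox9, Sox5 and Sox6 and the proteoglycan Acan, 12 were higher in SAG than in PF and 1 lower, and 14 were higher in SAG than in COR. The median log2 ratios of the list were 4.64 and 4.68. With Rn45s counted in the totals, 7 were higher in SAG than in PF and 10 higher than in COR. Sox9 stood at 123.5 and 3448 CPM on the SAG plates and 15.9 and 48.2 CPM on the PF plates. Lect1, a cartilage matrix gene, stood at 2554 and 9953 CPM in SAG and 7.27 and 6.81 CPM in PF. Of 8 genes of other fibril-forming collagens, types I, III, V, XXIV and XXVII, 5 were lower in SAG than in PF and 1 was higher, where 16.9% of all genes were lower. Col1a1 stood at 29167 and 13152 CPM on the SAG plates and 112520 and 75393 CPM on the PF plates. Col5a2 stood at 1040 and 443.6 CPM in SAG and 2487 and 2335 CPM in PF. The higher one was Col27a1, which chondrocytes also make, at 74.9 and 300.9 CPM in SAG and 46.2 and 62.2 CPM in PF. Without SAG plate 2, or with Rn45s counted, 0 of the 8 were higher in SAG. Of 7 hypertrophy genes 4 reached the minimum in SAG or PF. Of these, 0 were higher and 3 were lower in SAG than in PF, against the same 16.9%. In GP 5 of the 7 were compared with PF, with 0 higher and 2 lower, where 7.67% of all genes were lower. Against COR the list also gave 0 of 5 higher and 2 lower in GP, where 6.33% of all genes were lower. Of 11 genes of bone-forming cells, 6 were lower and 1 was higher in SAG than in PF, against the same 16.9%. In GP 7 of the 11 were lower than in PF and 0 higher, where 7.67% of all genes were lower.

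Which of these genes were read in the same cells was then asked cell by cell. In all, the 7 genes left 11 PF, 12 SAG, 7 COR and 7 GP cells with no read of any of them. The median cell had reads of 1 of the 7 genes in PF, COR and GP, of 6 on SAG plate 1 and of 1.5 on SAG plate 2. All 7 were read in 6 cells of GP plate 2.

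**Figure D3:**
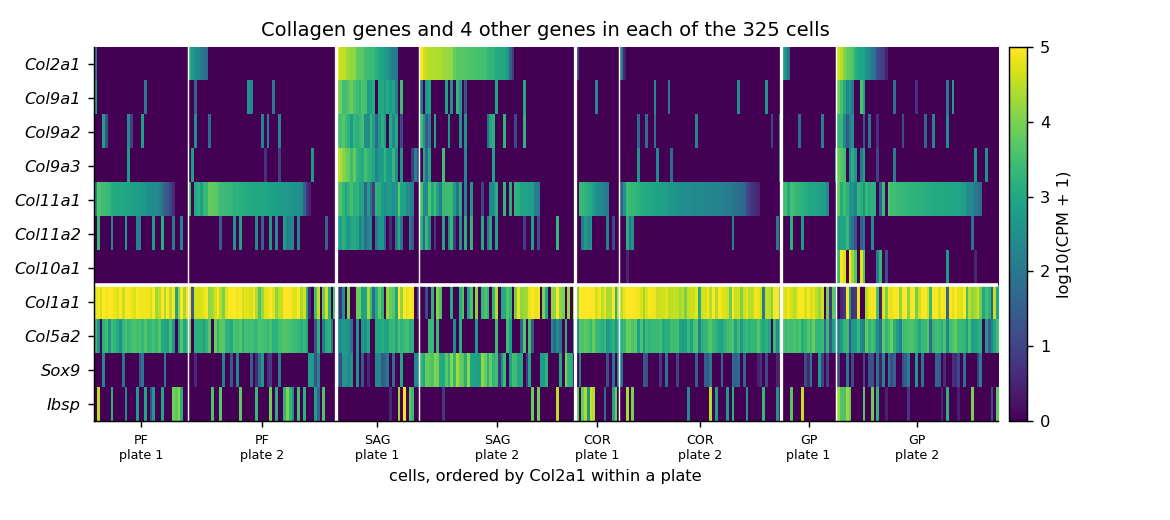
The 7 collagen genes (upper rows) and Col1a1, Col5a2, Sox9 and Ibsp (lower rows) in each of 325 cells (columns, ordered by Col2a1 and then Col11a1 within a plate), coloured by log10(CPM + 1). Type IX genes followed Col2a1 on SAG plate 1 and in part of GP plate 2. The band of Col11a1 ran through most cells without Col2a1 on every plate but SAG plate 2. There 9 of these cells had Col11a1 and 13 did not.

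Type IX genes accompanied Col2a1 to different degrees. On SAG plate 1, 20 of 22 cells with Col2a1 also had reads of all 3 type IX genes, and every one had Col9a3 and Col11a1. On SAG plate 2, 3 of 34 did, and 17 had at least 1 type IX gene. These plate 2 cells had a median of 4278 CPM of Col2a1, against 2827 CPM on plate 1, with Rn45s left out of the totals. With it counted, the Col2a1 level summed over all cells was 7111 CPM on plate 1 and 955.1 CPM on plate 2. On plate 2 Acan was read in 29 of the 34. Sox9 was read in 33 of the 34 at 4929 CPM, against 15 of 22 and 119.9 CPM on plate 1. At 10 reads or more of each gene the pooled SAG share of Col2a1 cells with all 3 type IX genes was 38.9%, with cells thinned to 100000 reads other than Rn45s it was 40%, and over all reads it was 41.1%. In GP 6 of 21 Col2a1 cells had all 3, all on plate 2, and in PF and COR 0 of 8 and 0 of 3 did. Of the 18 PF cells with any type IX read, 15 had only 1 of the 3 genes, and 9 of the 12 such COR cells.

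**Figure D4:**
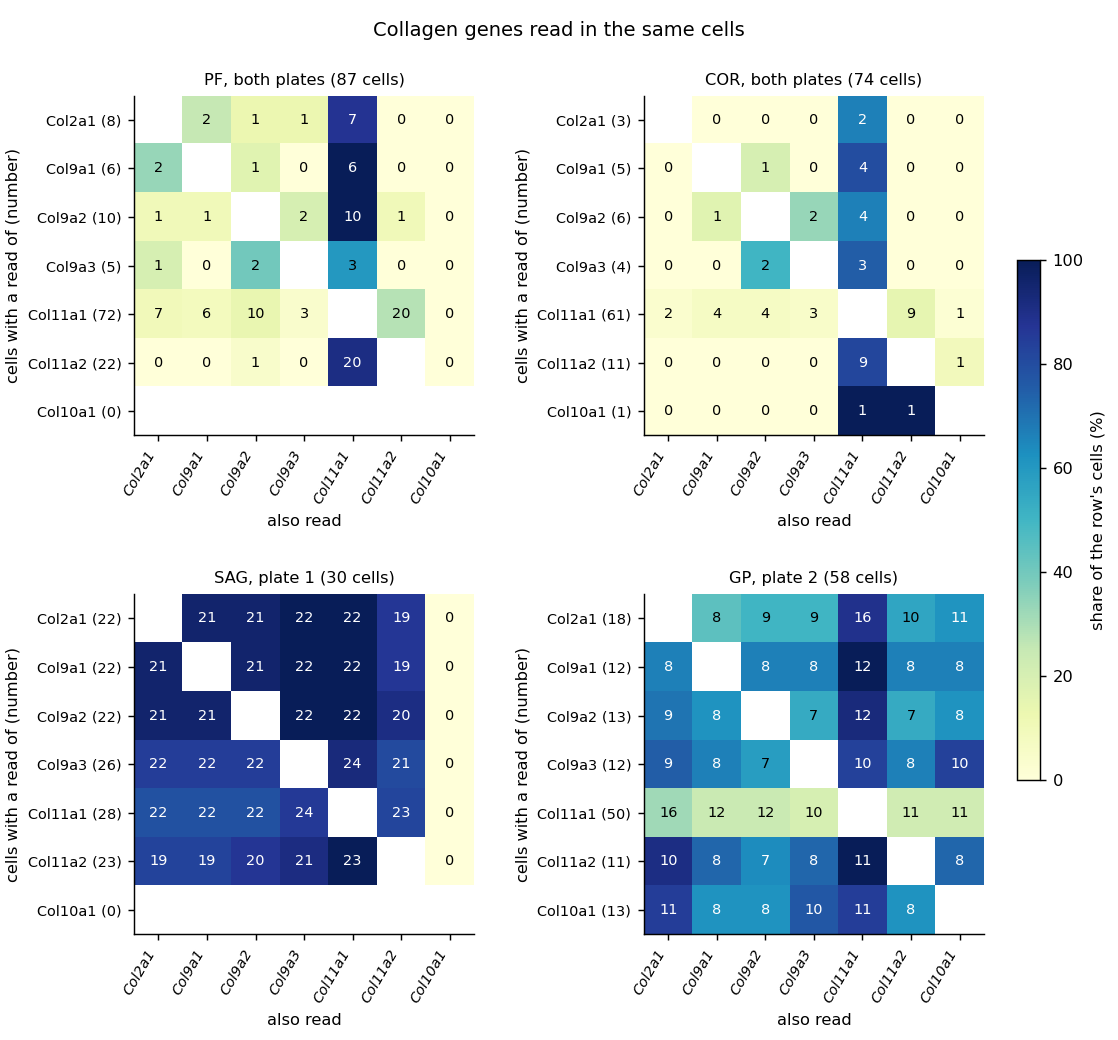
Number of cells in which the gene of the row and the gene of the column were both read, for PF, COR, SAG plate 1 and GP plate 2, coloured by the share of the row's cells in percent. Nearly all squares of SAG plate 1 outside Col10a1 are dark, with 19 to 24 shared cells a pair. In PF and COR the dark squares lie in the Col11a1 column, with the row of the single Col10a1 cell of COR as the exception.

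Most cells with Col11a1 had no Col2a1 in PF, COR and GP. Of cells with a Col11a1 read, 65 of 72 in PF had no Col2a1 read (90.3%, 80.99% to 96%), 59 of 61 in COR (96.7%, 88.7% to 99.6%), 48 of 67 in GP (71.6%, 59.3% to 81.99%) and 15 of 60 in SAG (25%, 14.7% to 37.9%). By plate the share was 96.6% and 86.05% in PF, 100% and 96% in COR, 82.4% and 68% in GP and 21.4% and 28.1% in SAG, so SAG lay below the others on both plates. These shares lie close to the share of all cells without Col2a1, which was 90.8% in PF, 95.9% in COR and 73.1% in GP, while in SAG it was 34.9% (26.7% and 39.3% by plate). Thinning to 100000 reads left 90.9%, 98.2%, 70.7% and 25.9% in PF, COR, GP and SAG. Col11a1 was the only one of the 7 genes read in 32 PF, 41 COR, 35 GP and 7 SAG cells. The cells with Col11a1 and no Col2a1 had a median depth, without Rn45s, of 312083 reads in PF and 467647 in COR, against 403416 and 477057 in the cells with Col2a1 there.

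The cells with Col11a1 and no Col2a1 carried the collagens of type I and V fibrils. Col1a1 was read in 65 of 65 such cells in PF, 59 of 59 in COR, 47 of 48 in GP and 15 of 15 in SAG, with medians of 65264, 50032, 52368 and 67156 CPM. On SAG plates 1 and 2 the medians were 108253 CPM (6 cells) and 65830 CPM (9 cells). Col5a2 was read in 62 of 65, 59 of 59, 48 of 48 and 10 of 15 of them, with medians of 2352, 2241, 2303 and 1212 CPM. In SAG these were 6 of 6 cells on plate 1 and 4 of 9 on plate 2. Where neither Col2a1 nor Col11a1 was read, the median of Col1a1 was 4926 CPM in 14 PF cells, 1594 CPM in 9 GP cells and 33231 CPM in 12 COR cells. On SAG plates 1 and 2 it was 4.40 CPM (2 cells) and 10181 CPM (13 cells). These cells carried the genes too. Col1a1 was read in 11 of 14 in PF, 12 of 12 in COR, 9 of 9 in GP and 10 of 15 in SAG, and Col5a2 in 10, 11, 8 and 6 of them. The SAG cells with Col2a1 had less Col1a1 than the SAG cells with Col11a1 and no Col2a1. Col1a1 was read in 37 of the 56 SAG cells with Col2a1, with a median of 994.2 CPM, and by plate the medians were 1086 and 991.2 CPM. The other SAG cells had medians of 75535 CPM on plate 1 (8 cells) and 15425 CPM on plate 2 (22 cells), and the 8 PF cells with Col2a1 had 57841 CPM.

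Within the cells with Col11a1 and without Col2a1, genes of bone-forming cells were read in a larger share of the cells that also had Col11a2. Of the 11 genes on that list, the share was higher with Col11a2 for 11 in PF, 11 in COR, 10 in SAG and 9 in GP. Median shares were 85% against 6.67% in PF and 33.3% against 24.4% in GP, where only 3 cells had Col11a2. How many of all genes had a higher share with Col11a2 was not computed, so the counts have no background. In PF 20 of these 65 cells also had Col11a2, and Bglap (osteocalcin, a late osteoblast protein) was read in 18 of the 20, against 1 of the 45 without Col11a2. Ibsp (bone sialoprotein) was read in 17 of the 20 and in 4 of the 45, and Sp7, an osteoblast transcription factor, in 14 and in 9. Col1a1 had a median of 130430 CPM in the 20 and 55926 CPM in the 45. The pattern was alike but from fewer cells in COR, where Ibsp was read in 7 of 9 cells with Col11a2 and 7 of 50 without, and in SAG, in 5 of 7 and 1 of 8 (3 of 4 and 1 of 2 on plate 1, 2 of 3 and 0 of 6 on plate 2). In GP it was 3 of 3 and 4 of 45. Bglap was read in 6 of 9 and 19 of 50 such COR cells, but in GP in 1 of 3 and 13 of 45. Sp7 was read in 8 of 9 and 30 of 50 in COR, 4 of 7 and 1 of 8 in SAG and 1 of 3 and 11 of 45 in GP. The cells with Col11a2 in PF were deeper, with a median of 418360 reads against 263953. Elsewhere they were shallower, with 390761 against 474958 in COR, 183802 against 227957 in SAG and 55494 against 375352 in GP. The part of depth in the difference was not tested. In these same PF cells Acan was read in 2 of the 20 and in 23 of the 45.

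Col2a1 and Col1a1 were set side by side in each cell. Col2a1 exceeded Col1a1 in 38 of 56 SAG cells with a Col2a1 read, 9 of 21 in GP, 1 of 8 in PF and 0 of 3 in COR. By plate this was 12 of 22 and 26 of 34 in SAG, and 0 of 3 and 9 of 18 in GP. Col1a1 was not read at all in 19 of the 56 SAG cells, 15 of them on plate 2, and in 3 of the 21 GP cells. The PF and COR cells with Col2a1 thus had Col1a1 above Col2a1 in all but 1 case.

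**Figure D5:**
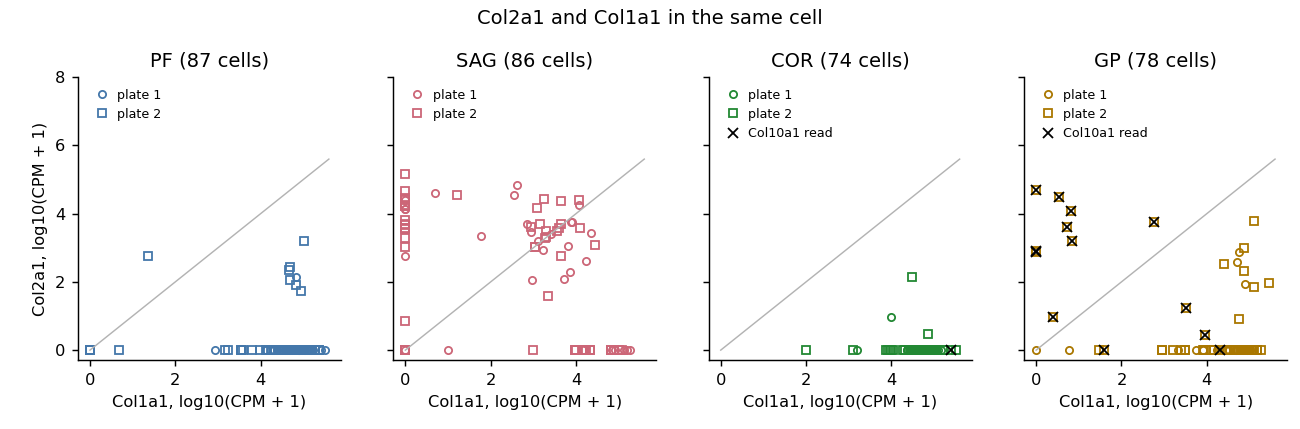
Col2a1 against Col1a1 in each cell, both as log10(CPM + 1), by tissue, with circles for plate 1, squares for plate 2 and crosses for cells with a Col10a1 read. The grey line marks equal levels. SAG cells with Col2a1 lay above the line in 38 of 56 cases, and the GP cells above it carried Col10a1.

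The Col2a1 cells of GP fell into those with and those without Col10a1. Of the 13 cells with a Col10a1 read, 11 had Col2a1 as well, and Col10a1 was read in 11 of the 21 Col2a1 cells. Over the 11 cells with 10 or more Col10a1 reads, Col2a1 was read in 10, Col11a1 in 10, Col9a3 in 9 and Col9a1, Col9a2 and Col11a2 in 8 each. Their median levels were 4845 CPM for Col10a1, 1621 CPM for Col2a1, 490.4 CPM for Col9a1, 478.8 CPM for Col11a1, 419.7 CPM for Col9a3, 156.7 CPM for Col9a2 and 70.9 CPM for Col11a2. Col1a1 was nearly absent from these cells, with a median of 4.34 CPM and a highest value of 3257 CPM. The 2 cells with fewer Col10a1 reads had Col1a1 at 8978 and 20324 CPM, and 1 of them had a single Col2a1 read.

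The 10 GP cells with Col2a1 and no Col10a1 read looked different. Their Col1a1 ran from 25067 to 292939 CPM with a median of 75463 CPM, above every cell of the former group. Col2a1 had a median of 270.7 CPM, Col11a1 was read in all 10 with a median of 1960 CPM, and Col9a3 was read in 0, Col9a1 in 1 and Col9a2 in 2. Median depth was 436478 reads in these 10 cells, 406687 in the 11 with 10 or more Col10a1 reads and 511492 in the 13 with any. Of the 10 cells, 3 were from GP plate 1, where no cell had a Col10a1 read.

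Among other genes in the 11 cells with 10 or more Col10a1 reads, the matrix protease Mmp13, made by late hypertrophic chondrocytes, was read in 9 with a median of 10659 CPM and Spp1 (osteopontin) in 11 with a median of 142646 CPM. Ibsp was read in 7 with a median of 1914 CPM, Acan in 10, Runx2 in 7 and Panx3 in 7. Ihh, which prehypertrophic chondrocytes make, and Bglap were read in 0 of 11. In the 10 cells with Col2a1 and no Col10a1 read, Mmp13 was read in 1 and Ibsp in 2. Of the osteoclast list, Ocstamp and Calcr were at 0 in all cells of the series while Mmp9 was read in 4 of the 11, Acp5 in 4 and Ctsk in 3, and Cd68 of the blood list in 5 with Ptprc at 0. Their part in the result was not tested, and the 5 endothelial markers were all at 0 in the 11.

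The genes whose level ran most closely with each member were ranked by Pearson's r of log2(CPM + 1) over the 269 cells of PF, COR, GP and SAG plate 1, among 10791 genes read in at least 10 of them. Cells of a plate share its preparation and zeros dominate, so r is a description. For Col2a1 the leaders were Col9a3 (r = 0.75), Col9a1 (0.74) and 3110079O15Rik (0.74). For Col9a1 they were Col9a3 (0.75), Col2a1 (0.74) and Lect1 (0.71), for Col9a2 Col9a3 (0.73), Col9a1 (0.69) and Col2a1 (0.68), and for Col9a3 the other 3 members just named, Col2a1, Col9a1 and Col9a2. Type XI stood outside this set. Col11a2 ran most closely with Ifitm5 (0.57), Smpd3 (0.54) and Col22a1 (0.54), of which Ifitm5 is known from osteoblasts, and had r = 0.46 with Col2a1. Col11a1 had no close companion, with Sparc (0.41), Peg3 (0.40) and Bgn (0.40) first and r = 0.20 with Col2a1 and 0.23 with Col11a2. Col10a1 ran with Cd24a (0.61), 3110079O15Rik (0.44) and Laptm5 (0.43), from 13 GP cells with its reads, and had r = 0.41 with Col2a1.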

How the data were processed

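Single cells were processed with SMART-seq2 and Nextera XT, without molecular identifiers. The 8 tables hold raw counts of reads per gene that the authors deposited without normalization, made on mm9. The processing notes name STAR 2.5.3a, HTSeq, Seurat 2.3.0 and R 3.4.4 without roles. Annotation and strand setting are not given in the sources used here. For 1 SAG cell the description names a PF plate, and it was left out in an alternative. No 2 cells were identical.

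Cells needed 500 genes and 10000 reads. Counts were summed per plate and tissue, so that deep cells weigh more, and divided by reads other than Rn45s (CPM). Intervals are exact Poisson or Clopper-Pearson at 95%, and a count of 0 was given the limit of 3 counts. Ratios used a pseudocount of 1 CPM, which understates low genes. The calling rule was also run on simulated counts with known differences, and the outcome is not given here. Python 3.11.15, pandas 2.3.3, SciPy 1.17.1, R 4.3.3 and edgeR 4.0.16 (TMM factors only) were used. Gene positions are from GENCODE on mm9 and upstream sequences from RefSeq on GRCm38.p6. The 7 genes and all lists were chosen with earlier results of these data known. All 7 genes are named, and of others those a result turns on and, for likeness, the 3 with the highest correlation. Alternatives were other totals, pseudocounts, cell filters and read thresholds, thinning, a mean over cells, and left-out cells and plates.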

Additional observations from a re-analysis of the deposited data

Results flagged for a closer look

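Reads of these collagens also lay in the 35 cells that the filter removed and that no comparison used, above the 3 reads taken as the limit for a count of 0. In the 8 removed SAG cells there were 3320 reads of Col2a1 in 4 cells, 1014 of Col11a1 in 3 cells, 24 of Col9a2 and 10 of Col11a2 in 1 cell each. In the 7 removed GP cells there were 451 reads of Col10a1 in 2 cells, 43 of Col11a1 in 2 cells and 5 of Col2a1 in 2 cells. In the 14 removed PF cells no member had a read, and in the 6 removed COR cells Col11a1 had 1.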

How the results depend on the processing

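Because plates were not animals and SAG plate 2 stood apart in genes read and Rn45s, no number here measures spread between mice. Counting Rn45s in the totals moved the median log2 ratio over all genes by -1.71 for SAG against PF, -1.71 against COR and -1.63 against GP, and the part of calls that were higher in SAG fell from 43.8% to 16.8%, from 41.7% to 14.1% and from 42% to 17.2%. TMM factors moved the SAG medians by 0.24, 0.22 and 0.15 and changed no count of members.

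With Rn45s counted, the members higher in SAG numbered 2 against PF and 0 against GP, where 4.52% and 4.88% of all genes met the rule. The log2 ratios of Col11a2 (-0.40 against PF, -0.44 against GP) and Col2a1 (-0.030 against GP) changed sign under this scaling. The stricter cell filter left 0 cells of SAG plate 2. Under it, or without that plate, 5 members were higher in SAG than in GP, against 15.7% or 17.6% of all genes. In these settings 90.5% or 90.9% of SAG Col2a1 cells had all 3 type IX genes. Means over cells gave 1 member higher in GP than in PF and 3 in PF than in COR. Without the cell with most reads of each gene these were 2 and 2. A pseudocount of 10 CPM gave 0 for PF against COR. For means over cells, the left-out top cells and this pseudocount, the share of all genes was not computed. Thinning gave 100% for GP Col10a1 cells with Col2a1, against 84.6%.

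With 1 plate left out at a time, the number of members ranged from 5 to 5 for SAG against PF, 5 to 6 for SAG against COR, 0 to 5 for GP against PF, 2 to 7 for GP against COR, 2 to 5 for SAG against GP and 1 to 3 for PF against COR. Among Col11a1 cells, the share without Col2a1 ranged from 86.05% to 96.6% (PF), from 21.4% to 28.1% (SAG), from 96% to 100% (COR) and from 68% to 82.4% (GP). Col2a1 cells with all 3 type IX genes ranged from 8.82% to 90.9% in SAG and 0% to 33.3% in GP. For the member counts with a plate left out, the share of all genes was computed only without SAG plate 2. No paired analysis was possible because no result came from a test. Using no cell filter changed none of these counts of members and kept these shares within their exact intervals. Over the levels and shares of each gene, it moved 1 level beyond its plate spread and 1 share beyond its interval. Leaving out the SAG cell with the PF description moved no SAG level beyond its plate spread and no share beyond its interval. Among passing cells, 37 held under 100000 reads other than Rn45s and were left out of the thinned shares. After thinning, Col2a1 was read in 8.57% of PF and 2.82% of COR cells, against 9.20% and 4.05% over all reads. The part of depth in the low shares was not tested further.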
